A study of Mus musculus with 16 samples.

Results

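Prenatal stress was compared with control in the medial prefrontal cortex of newborn mice. The comparison covered every gene of the P1 expression table with a mean normalized count of at least 10 over its libraries, which left 16711 of 19748 genes. It used 8 of the 16 libraries of the series, namely PNS (pups of dams exposed to stress while pregnant, n = 4) and Ctrl (pups of dams left unstressed, n = 4). All of them were made from poly(A) RNA of male ICR mice, an outbred stock without engineered alleles, at 1 day of age. Whether the replicates of a group were separate animals, or came from different litters, is not stated. The p-values therefore measure only the spread between these libraries, which may be technical.

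The newborn rodent cortex is still under construction. Its projection neurons have just reached their layers, their axons are being steered by semaphorins, ephrins and netrins, and the meninges and vessels around them secrete growth factors and matrix. Maternal stress raises circulating glucocorticoids in the dam, and these hormones act in the fetus through the glucocorticoid receptor, a ligand-driven transcription factor. Interneuron markers are not covered here.

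Levels are normalized read counts. A difference is PNS minus Ctrl on the log2(value + 1) scale with its standard error (SE), which understates the change of weak genes. No gene passed limma's moderated test, with 0 of 16711 (0.0%) at a Benjamini-Hochberg adjusted p under 0.05 and a smallest adjusted p of 0.198. At an unadjusted p under 0.05, 765 genes (4.58%) stood higher and 350 (2.09%) lower in PNS. All PNS libraries lay above all Ctrl libraries in 283 genes (1.69%) and below them in 257 (1.54%). edgeR's quasi-likelihood test on recovered reads called 0 genes, with 1176 at an unadjusted p under 0.05. DESeq2 on the same reads called 58 higher (0.347%) and 13 lower (0.0778%), and 51 of these 71 had no overlap between the groups. The median difference over all genes was -0.02, and 44.5% of genes were above 0. These shares over all genes are the background for the list counts below.

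The libraries held 48.0 to 58.8 M reads in PNS and 34.0 to 50.6 M in Ctrl. The summed normalized count of 6 markers of cortical excitatory neurons ran from 106467 to 122253 in PNS and from 105910 to 146307 in Ctrl, with no marker at 0 in any library. PNS replicate 4 stood apart from replicates 1 to 3. The 4 olfactory bulb markers (Cdhr1, Tbx21, Doc2g and Omp) summed to 239 in PNS replicate 4 and to 4484, 9853 and 6716 in the other PNS libraries, against 314 to 1300 in Ctrl. The 3 leptomeningeal markers (Slc6a13, Foxc1 and Aldh1a2) summed to 5165, 7843 and 8897 in PNS replicates 1 to 3 and 5498 in PNS replicate 4, against 3588 to 4688 in Ctrl. Striatal markers were highest in Ctrl replicate 1, at 7378 against 3239 to 3969 in PNS and 3717 to 4602 in the other Ctrl libraries. Choroid plexus markers were highest in Ctrl replicate 3, at 659, with 130 to 219 in PNS. In bulk tissue, fewer cells of a type and less RNA per cell cannot be told apart.

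Leading genes were picked by smallest p among genes without overlap between the groups. Those of the lower side included 3 membrane or secreted guidance proteins. Sema3c encodes a secreted semaphorin that steers axons and migrating neurons. It lies on GRCm38 chromosome 5, 17574281 to 17730268, plus strand. Ephb1 (chromosome 9, 101922128 to 102354693, minus strand) and Epha4 (chromosome 1, 77367185 to 77515088, minus strand) encode receptor tyrosine kinases for ephrins, through which contact between cells is turned into repulsion or adhesion. The 250 bases before the RefSeq start sites (GRCm38.p6) of Ephb1 and Epha4 are shown beside those of 2 signalling genes of the higher side, Cxcl12 and Wnt11. Each pair lay on its own side of all Ctrl libraries in all 4 PNS libraries, which the choice of leading genes fixes. Capitals mark the GC box GGGCGG on either strand.
Ephb1, chr9:102354694-102354943, minus strand: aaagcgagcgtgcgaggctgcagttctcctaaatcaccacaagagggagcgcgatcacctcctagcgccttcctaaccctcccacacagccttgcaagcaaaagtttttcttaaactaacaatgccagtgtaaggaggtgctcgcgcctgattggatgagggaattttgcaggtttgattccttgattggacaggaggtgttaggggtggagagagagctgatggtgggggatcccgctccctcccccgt
Epha4, chr1:77515089-77515338, minus strand: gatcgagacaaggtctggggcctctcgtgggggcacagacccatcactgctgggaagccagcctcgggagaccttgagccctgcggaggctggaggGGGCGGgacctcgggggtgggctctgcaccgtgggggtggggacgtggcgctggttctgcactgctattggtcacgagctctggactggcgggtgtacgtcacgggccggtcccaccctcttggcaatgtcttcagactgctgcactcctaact
Cxcl12, chr6:117168285-117168534, plus strand: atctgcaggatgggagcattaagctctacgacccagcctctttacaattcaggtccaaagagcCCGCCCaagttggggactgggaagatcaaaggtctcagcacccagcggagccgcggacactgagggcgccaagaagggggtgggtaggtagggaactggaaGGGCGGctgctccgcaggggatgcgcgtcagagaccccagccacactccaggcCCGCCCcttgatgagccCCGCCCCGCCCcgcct
Wnt11, chr7:98834862-98835111, plus strand: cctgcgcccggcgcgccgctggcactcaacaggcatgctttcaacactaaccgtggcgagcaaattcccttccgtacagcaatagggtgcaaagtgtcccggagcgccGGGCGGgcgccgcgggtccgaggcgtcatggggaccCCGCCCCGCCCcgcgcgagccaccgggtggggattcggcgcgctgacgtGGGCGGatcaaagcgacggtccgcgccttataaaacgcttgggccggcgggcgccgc
The GC box occurred 0 times in the Ephb1 window, 1 time in that of Epha4, 5 times in that of Cxcl12 and 4 times in that of Wnt11, and 32.7% of all 32851 RefSeq windows of that length hold it. The Epha4 window overlaps an exon of the long noncoding RNA Gm28386 on the plus strand. Windows were found for 18 of the 24 leading genes described here. Of these 18, 12 held a GC box. The printed windows do not stand for their sides. Counts ran from 0 to 3 in the lower genes, with 3 in Sema3c and Osbpl6. In the higher genes they ran from 0 in Serpinf1 and Sphk1 to 8 in Aifm3. The hexamer AGAACA, part of glucocorticoid receptor binding sites, was in 1 of the 18, that of Stom, and in 16.1% of all windows. The POU factor octamer ATGCAAAT was in 0 of the 18 and in 1.60% of all windows. Both strands were searched. In the Cxcl12 and Wnt11 windows 1 pair of GC boxes shares a base, and no match of one motif overlapped a match of another in the printed windows.

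Sema3c had normalized counts of 2346, 2171, 2429 and 2075 in PNS replicates 1 to 4, against 3525, 3242, 3092 and 3196 in Ctrl. PNS replicate 4 was the lowest of the 8 libraries. The difference was -0.53 ± 0.07 (SE), with a limma adjusted p of 0.198, a DESeq2 adjusted p of 6.58e-08 and a limma adjusted p of 0.0227 when PNS replicate 4 was left out. Ephb1 had 4065, 3730, 4139 and 3861 in PNS and 5130, 4905, 4593 and 5372 in Ctrl, so the groups did not overlap and replicate 4 lay inside the range of the other PNS libraries. Epha4 had 6128, 5211, 5450 and 6030 in PNS and 8032, 7444, 6437 and 7716 in Ctrl. The DESeq2 adjusted p was 0.00337 for Ephb1 and 0.0176 for Epha4, while the limma adjusted p was 0.669 for both. Sema7a, a membrane-anchored semaphorin that promotes axon growth, had 6109, 4699, 5607 and 6230 in PNS and 6742, 7143, 6872 and 7461 in Ctrl, again without overlap, with a difference of -0.33 ± 0.09 and a DESeq2 adjusted p of 0.106. Hs6st2 adds 6-O-sulfate to heparan sulfate, the cell-surface sugar that binds many guidance and growth factors. It had 2337, 2049, 2407 and 2024 in PNS and 3104, 2625, 3369 and 3074 in Ctrl (difference -0.46 ± 0.09, DESeq2 adjusted p of 0.00586).

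**Figure D1:**
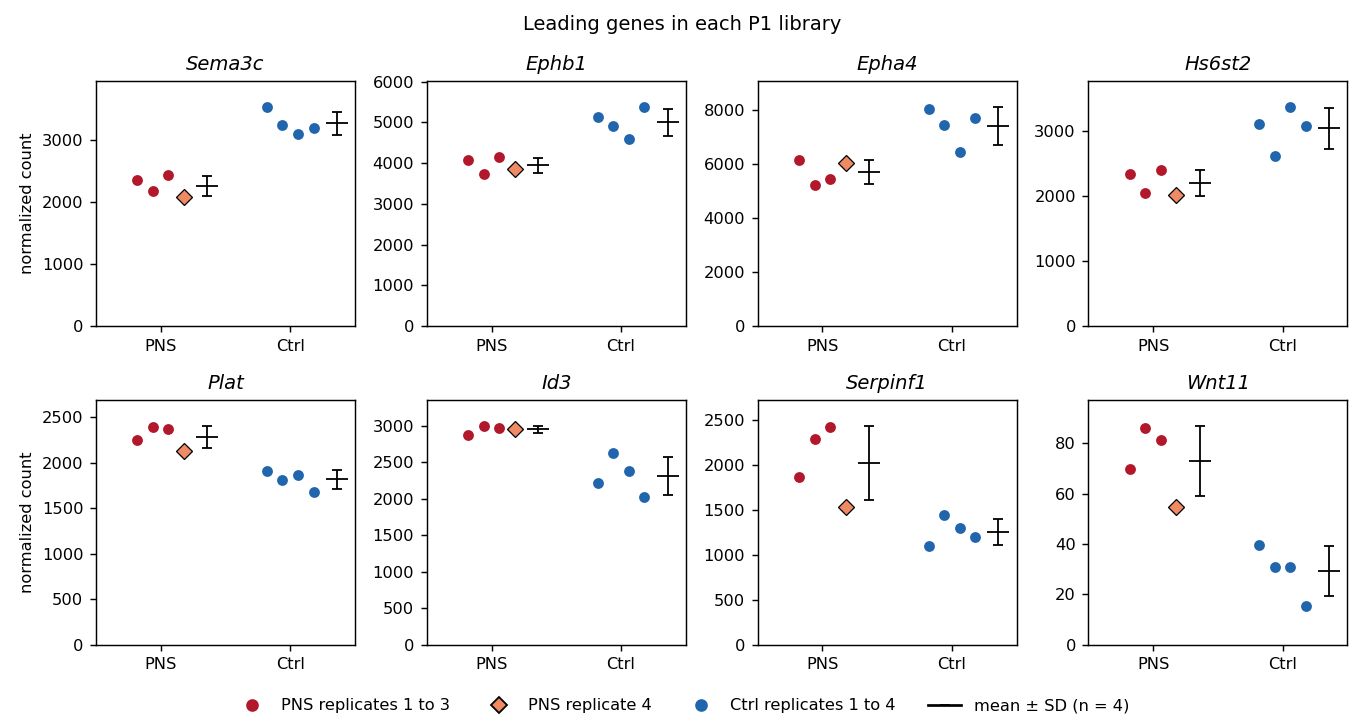
Normalized counts of 8 genes in each P1 library, with PNS left of Ctrl in each panel, axes starting at 0, PNS replicate 4 as a diamond and the mean ± SD of each group (n = 4) as a bar. In Sema3c, Ephb1, Epha4 and Hs6st2 all PNS libraries lie below all Ctrl libraries, and in Plat, Id3, Serpinf1 and Wnt11 all lie above them.

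The guidance families were split in direction. Of 31 semaphorins, neuropilins and plexins, 13 were above 0 and 18 below, with a median difference of -0.06. Sema3g, a vascular class 3 semaphorin, ran the other way from Sema3c, with 431, 481, 518 and 379 in PNS and 252, 301, 329 and 376 in Ctrl, and no overlap. Of 21 Eph receptors and ephrins, 9 were above and 12 below 0 (median -0.01). Ephb2, a related ephrin-B receptor, averaged 6693 ± 558 in PNS and 7987 ± 1310 in Ctrl (SD, n = 4 each) with overlap, and the ligand gene Efna1 averaged 415 ± 43.0 in PNS and 340 ± 33.9 in Ctrl without overlap. Among 26 netrins, Slits and receptors, 7 were above and 19 below 0 (median -0.10), with 0 members free of overlap. Heparan sulfate genes split 15 to 18, and next to Hs6st2 stood Gpc3, a glypican proteoglycan, at 1390, 2055, 2048 and 1413 in PNS and 1137, 1034, 1202 and 1218 in Ctrl (DESeq2 adjusted p of 0.026).

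The other genes with the smallest p on the lower side had varied roles. Pantr1, a long noncoding RNA, had 1962, 1812, 1899 and 1788 in PNS and 2711, 2388, 2260 and 2401 in Ctrl (difference -0.39 ± 0.07, DESeq2 adjusted p of 0.00183). Pantr1 (chromosome 1, 42590782 to 42694842, minus strand) lies 925 bases from Pou3f3 (42695768 to 42703176, plus strand), which encodes a POU transcription factor of upper-layer neurons. Pou3f3 had 16196, 16269, 17211 and 17064 in PNS and 22463, 17393, 18576 and 23394 in Ctrl, also without overlap, with a difference of -0.28 ± 0.09 and a DESeq2 adjusted p of 0.223. Pappa2, a protease that frees insulin-like growth factors from their binding proteins, had 294, 207, 267 and 223 in PNS and 404, 408, 341 and 558 in Ctrl (difference -0.78 ± 0.17, DESeq2 adjusted p of 0.00885). Sostdc1, a secreted antagonist of BMP and Wnt signals, had 269, 156, 208 and 155 in PNS and 304, 288, 341 and 395 in Ctrl (difference -0.78 ± 0.19, DESeq2 adjusted p of 0.0485). Both are weak genes in which PNS replicate 4 lay with the low PNS libraries.

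Exosc9, a subunit of the RNA exosome that degrades RNA from its 3′ end, had 1152, 1173, 938 and 1143 in PNS and 1457, 1452, 1571 and 1401 in Ctrl (DESeq2 adjusted p of 0.00651). Kcnn1, a calcium-activated potassium channel of small conductance, had 1549, 1286, 1409 and 1396 in PNS and 2082, 1606, 1834 and 1908 in Ctrl (DESeq2 adjusted p of 0.027). Nfya, a CCAAT-binding transcription factor, Taf15, an RNA-binding protein, and Osbpl6, an oxysterol-binding protein, averaged 18.5%, 17.6% and 17.1% below Ctrl. They had no overlap by selection, and none of the 3 passed DESeq2 (adjusted p from 0.06 to 0.0771). Ranked by size instead of p, the lower side was led by Veph1, Lyrm7, Sostdc1, Pappa2 and Psmc3ip. Veph1 rested on Ctrl replicate 1, at 256 against 60.6 to 87.3 in the other Ctrl libraries and 35.6 to 59.0 in PNS. Psmc3ip rested on Ctrl replicate 2, at 958 against 298 to 362 in the other Ctrl libraries and 242 to 284 in PNS. Lyrm7, an assembly factor of respiratory complex III, had 103 to 108 in all PNS libraries and 118, 127, 269 and 291 in Ctrl. In 0 of the 12 lower genes with the smallest p was PNS replicate 4 the PNS library nearest to Ctrl.

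The leading genes of the higher side had varied roles. Plat, the tissue plasminogen activator (chromosome 8, 22757727 to 22782844, plus strand), had 2249, 2390, 2374 and 2125 in PNS and 1911, 1811, 1869 and 1679 in Ctrl (difference 0.33 ± 0.07, DESeq2 adjusted p of 0.00586). Serpinf1, a secreted serpin with effects on neurons and vessels, had 1857, 2285, 2422 and 1525 in PNS and 1100, 1440, 1290 and 1190 in Ctrl (difference 0.67 ± 0.14, DESeq2 adjusted p of 0.00586). Replicate 4 was the lowest PNS library in both. Without it the limma adjusted p was 0.0472 for Plat and 0.0236 for Serpinf1. Of 16 plasminogen activators and serpins, 11 were above and 5 below 0 (median 0.20, and 0.11 without PNS replicates 2 and 3). Above Ctrl without overlap stood 3, beside 1.69% of all genes. Serpinh1, the collagen chaperone, was the third of these at 4911, 5623, 5212 and 4213 in PNS and 4043, 4131, 3929 and 3998 in Ctrl. Metalloproteases and their inhibitors split 17 to 16. Mmp9, a gelatinase, averaged 618 ± 123 in PNS and 890 ± 157 in Ctrl (difference -0.53, unadjusted limma p of 0.00891, adjusted p of 0.669).

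Id3, an inhibitor of basic helix-loop-helix factors and a direct target of BMP signals, was nearly the same in the 4 PNS libraries, at 2879, 2991, 2975 and 2954, against 2216, 2633, 2386 and 2023 in Ctrl (difference 0.36 ± 0.08, DESeq2 adjusted p of 0.0206). Its relative Id1 had 1050, 1103, 1106 and 915 in PNS and 839, 850, 700 and 826 in Ctrl (DESeq2 adjusted p of 0.0426). Of 40 BMP and TGF-beta genes, 28 were above and 12 below 0 (median 0.14). Without overlap, 5 stood above Ctrl and 1 below, beside 1.69% and 1.54% of all genes. The ligand Bmp6 had 2041, 2688, 3221 and 2030 in PNS and 1599, 1821, 1511 and 1717 in Ctrl, and DESeq2 called it (adjusted p of 0.0298). Bmp4 averaged 321 ± 87.7 in PNS and 197 ± 29.6 in Ctrl, without overlap (DESeq2 adjusted p of 0.0941). The list median was 0.03 without PNS replicates 2 and 3, and the differences of Id3 and Id1 were then 0.34 and 0.29.

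Wnt11, a ligand of the non-canonical Wnt branch, was a weak gene with 69.8, 86.1, 81.4 and 54.7 in PNS and 39.5, 30.6, 31.0 and 15.5 in Ctrl (difference 1.35 ± 0.29, DESeq2 adjusted p of 0.0176). The receptor Fzd10 had 216, 253, 244 and 216 in PNS and 174, 157, 121 and 164 in Ctrl (DESeq2 adjusted p of 0.0298). Of 48 Wnt genes, 35 were above and 13 below 0 (median 0.20, and 0.08 without PNS replicates 2 and 3). Without overlap, 4 stood above Ctrl and 2 below, beside 1.69% and 1.54% of all genes. The Wnt scores, the mean log2 deviation of the members from their mean over all 8 libraries, were 0.10, 0.32 and 0.33 in PNS replicates 1 to 3, with -0.18 in replicate 4, against -0.23 to -0.01 in Ctrl. Of 20 insulin-like growth factor genes, 14 were above and 6 below 0 (median 0.16, and 0.08 without PNS replicates 2 and 3). Pappa2 and Igfbpl1, a binding protein relative of immature neurons at 9846 ± 920 in PNS and 12734 ± 2020 in Ctrl, were the members with an unadjusted p under 0.05 on the lower side. Igfbp2, a secreted binding protein, averaged 11631 ± 945 in PNS and 10144 ± 447 in Ctrl. The groups did not overlap by little, with 10582 in PNS replicate 4 and 10554 in the highest Ctrl library.

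Further leading genes on the higher side were Stom, Sphk1, Aifm3, Cox6b2, Tnfrsf11b, Deptor, Cxcl12 and Capn6. Stom, a membrane scaffold protein, had 903, 938, 1033 and 906 in PNS and 560, 663, 787 and 680 in Ctrl. Sphk1, which makes the lipid signal sphingosine-1-phosphate, had 489, 862, 615 and 459 in PNS and 365, 280, 179 and 285 in Ctrl. Cxcl12, a chemokine that the meninges secrete and that guides migrating cortical neurons, had 5625, 7042, 5971 and 5700 in PNS and 4674, 5222, 4553 and 4416 in Ctrl. Deptor, an inhibitor of the kinase mTOR, averaged 281 ± 79.5 in PNS and 134 ± 35.7 in Ctrl, and Tnfrsf11b (osteoprotegerin, a decoy receptor) averaged 128 ± 29.4 in PNS and 71.9 ± 5.76 in Ctrl. Aifm3 averaged 327 ± 71.8 in PNS and 183 ± 22.9 in Ctrl. Cox6b2, a cytochrome c oxidase subunit best known from testis, averaged 112 ± 23.3 in PNS and 58.5 ± 4.82 in Ctrl, and Capn6, an atypical calpain, 134 ± 60.1 in PNS and 44.3 ± 17.8 in Ctrl. All 12 leading higher genes, Plat, Serpinf1, Id3 and Wnt11 included, passed DESeq2 (adjusted p from 0.00575 to 0.0361) and failed limma (adjusted p of 0.669 in each). PNS replicate 4 was the lowest PNS library in 7 of the 12. By size, Foxd2, a forkhead factor, and Itih2, a hyaluronan-binding protein, followed Doc2g, Capn6 and Wnt11. Doc2g, a bulb marker, averaged 88.7 ± 48.1 in PNS and 25.4 ± 17.7 in Ctrl. Itih2 had 541, 1108, 1175 and 468 in PNS and 374, 297, 225 and 384 in Ctrl. Foxd2 had 82.3, 168, 170 and 65.0 in PNS and 58.8, 26.0, 44.5 and 53.6 in Ctrl.

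**Figure D2:**
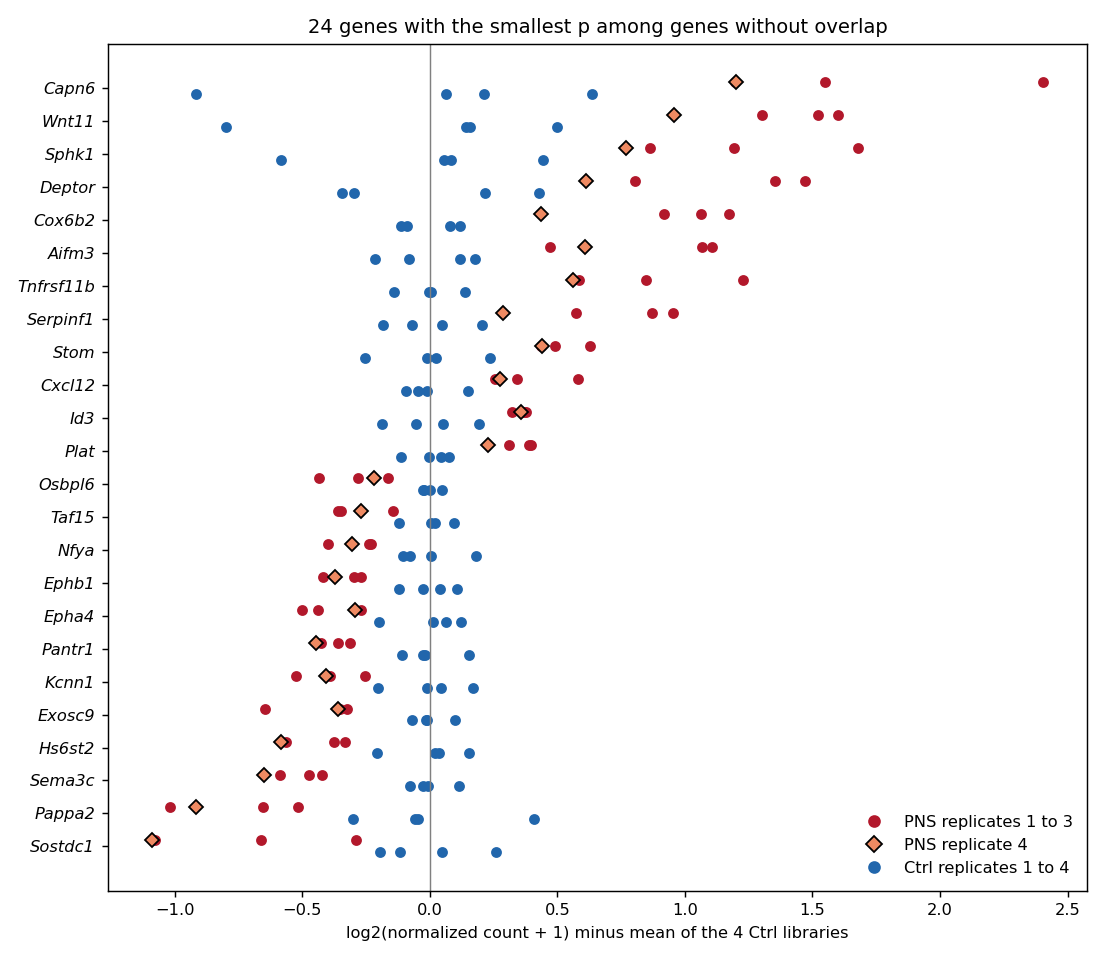
The 24 genes with the smallest p among named genes with no overlap and a mean of at least 50, as log2(normalized count + 1) of each library minus the mean of the 4 Ctrl libraries, with the PNS points above the Ctrl points in each row. The 12 lower genes ran from -0.27 (Osbpl6) to -0.78 (Sostdc1) and the 12 higher genes from 0.33 (Plat) to 1.59 (Capn6). The diamond of PNS replicate 4 lies nearest to Ctrl in 7 of the higher genes and in 0 of the lower genes.

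Matrix and meningeal genes formed the broadest higher block. Of 32 collagen chains, 30 were above and 2 below 0, with a median of 0.44 against -0.02 for all genes, and 4 stood above Ctrl without overlap. Of 42 laminins, nidogens and matrix glycoproteins, 38 were above 0 (median 0.32) and 0 were free of overlap. Of 28 leptomeningeal fibroblast genes, 27 were above 0 (median 0.58), 23 had an unadjusted p under 0.05 and 13 stood above Ctrl without overlap. Bmp6, Igfbp2 and Cxcl12, described above under other roles, are members of this list too. Plat is likewise also on the list of olfactory ensheathing glia genes. Leptomeningeal scores were 0.06, 0.60 and 0.67 in PNS replicates 1 to 3, with -0.04 in replicate 4, against -0.50 to -0.16 in Ctrl. These scores did not overlap, whereas the collagen score of PNS replicate 4, at -0.12, lay between the Ctrl scores of -0.33 to -0.10. Scores of all PNS libraries lay above all Ctrl scores in 4 of the 62 lists (6.45%) and below them in 1 (1.61%).

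Col12a1, a fibril-associated collagen, had 820, 1370, 1148 and 623 in PNS and 607, 359, 507 and 550 in Ctrl (DESeq2 adjusted p of 0.0191). Col3a1, a fibrillar collagen, had 11301, 14965, 14954 and 8922 in PNS and 8389, 8898, 8326 and 8622 in Ctrl, so PNS replicate 4 passed the highest Ctrl library by little. Col6a3 averaged 1718 ± 551 in PNS and 1032 ± 162 in Ctrl (DESeq2 adjusted p of 0.0528), with 1264 in PNS replicate 4 and 1200 in the highest Ctrl library. Col5a2 had 2557, 4091 and 3775 in PNS replicates 1 to 3 (DESeq2 adjusted p of 0.0126). Its 1811 in replicate 4 lay inside the Ctrl range of 1385 to 1848. Ranbp3l, a nuclear export factor of SMAD proteins, had 344, 492, 436 and 364 in PNS and 307, 254, 205 and 265 in Ctrl (DESeq2 adjusted p of 0.0248). Slc22a6, an organic anion transporter, averaged 2388 ± 428 in PNS and 1622 ± 269 in Ctrl. Aldh1a2, the retinoic acid synthase of the meninges, had 1464, 1975, 2476 and 1566 in PNS and 1355, 1148, 1065 and 1259 in Ctrl. Retinoic acid genes as a list split 14 to 9 (median 0.06). Without PNS replicates 2 and 3 the medians were 0.18 for collagens, 0.11 for the matrix glycoproteins and 0.31 for leptomeningeal genes, and in a model with the bulb scores they were 0.17, 0.10 and 0.39. The leptomeningeal markers summed above are members of the leptomeningeal list, so their sums are no separate measure of it. Their part in the collagen and matrix differences was not tested.

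Vessel genes also stood mostly above Ctrl. Of 27 endothelial genes, 26 were above 0 (median 0.19, and 0.11 without PNS replicates 2 and 3). Without overlap, 4 stood above Ctrl and 1 below, beside 1.69% and 1.54% of all genes. The lower one was Apln, a peptide ligand of endothelial tip cells, with 752, 643, 779 and 563 in PNS and 812, 785, 838 and 943 in Ctrl (difference -0.31 ± 0.11). Itm2a, a membrane protein of brain endothelium, had 3356, 4158, 3328 and 3180 in PNS and 2876, 2844, 2448 and 2491 in Ctrl (DESeq2 adjusted p of 0.0397). Klf2, a transcription factor induced by blood flow, had 828, 844, 920 and 810 in PNS and 650, 683, 651 and 808 in Ctrl. Endothelial scores in Ctrl were -0.26 in replicate 3 and -0.06 to -0.02 in the other libraries. Of 16 pericyte and smooth muscle genes, 13 were above 0 (median 0.33), and their scores in PNS were 0.03, 0.13, 0.41 and 0.05, above -0.25 to -0.09 in Ctrl. Vtn, the vitronectin that pericytes make, had 5020, 5673 and 6378 in PNS replicates 1 to 3, with 3461 in replicate 4, against 2687 to 3540 in Ctrl. Red cell genes, measured in 7 members, had a median of -0.01 with 5 below 0.

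Connexins, the subunits of gap junctions, were above 0 in 11 of 14. Their median was 0.31, against 0.16 without PNS replicates 2 and 3 and 0.14 with the bulb score in the model, with scores of 0.09, 0.40, 0.35 and -0.06 in PNS replicates 1 to 4 and -0.24 to -0.15 in Ctrl. Gjb6 (connexin 30) had 680, 1208, 1190 and 597 in PNS and 520, 364, 296 and 513 in Ctrl (difference 1.08 ± 0.26, DESeq2 adjusted p of 0.00885). Gjb2 (connexin 26), its partner in the meninges and in astrocytes, had 792, 1134, 1240 and 506 in PNS and 533, 398, 346 and 575 in Ctrl, so replicate 4 lay among the Ctrl libraries. Gja1 (connexin 43) had 5344, 8505, 6782 and 3887 in PNS and 3204 to 4416 in Ctrl, with the same position of replicate 4. Gja5 (connexin 40), of arterial endothelium, averaged 184 ± 32.0 in PNS and 138 ± 7.71 in Ctrl without overlap.

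Stress hormone genes gave a mixed record. Of 25 glucocorticoid-induced genes, 21 were above 0 (median 0.17, and 0.09 without PNS replicates 2 and 3). At an unadjusted p under 0.05, 7 were higher, beside 4.58% of all genes. Above Ctrl without overlap stood 3, beside 1.69% of all genes. These 3 were Gjb6, Tgm2 and Map3k6. Tgm2, a transglutaminase, had 692, 765, 882 and 700 in PNS and 605, 620, 523 and 634 in Ctrl. Map3k6, a stress-activated kinase, averaged 100.9 ± 19.5 in PNS and 63.6 ± 9.10 in Ctrl. Fkbp5, Tsc22d3 and Sgk1, members of this list picked by name and not by p, showed little difference. Fkbp5, a receptor co-chaperone, averaged 3209 ± 250 in PNS and 3307 ± 250 in Ctrl, with a difference of -0.04 ± 0.07. Tsc22d3, which encodes the glucocorticoid-induced leucine zipper, averaged 1362 ± 92.2 in PNS and 1458 ± 110 in Ctrl (difference -0.10 ± 0.08). Sgk1, a serum- and glucocorticoid-regulated kinase, averaged 2066 ± 197 in PNS and 2009 ± 72.3 in Ctrl (difference 0.04 ± 0.07). The unadjusted limma p was 0.57, 0.225 and 0.629 for Fkbp5, Tsc22d3 and Sgk1. The glucocorticoid receptor gene Nr3c1 had 1159, 1241 and 1215 in PNS replicates 1 to 3, with 797 in replicate 4, against 877 to 1057 in Ctrl. Receptors, chaperones and CRH system genes split 6 to 8 (median -0.01), with 0 members at an unadjusted p under 0.05.

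Scores of the glucocorticoid-induced list were 0.08, 0.24 and 0.32 in PNS replicates 1 to 3, with -0.11 in replicate 4, inside the Ctrl range of -0.19 to -0.07. Circadian clock genes, several of which respond to glucocorticoids, were above 0 in 16 of 20 (median 0.06). Clock itself had 1272, 1251, 1281 and 1204 in PNS and 1090, 1181, 1159 and 1121 in Ctrl, without overlap and with a difference of 0.14 ± 0.06. Thyroid hormone genes were below 0 in 9 of 14 (median -0.10), with 35.7% above 0 against 44.5% of all genes. Dio2, the enzyme that activates thyroid hormone, averaged 835 ± 169 in PNS and 1050 ± 150 in Ctrl. Activity-regulated genes split 16 to 14, with a median of 0.04.

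Genes listed for the layers of cortical projection neurons lay mostly below Ctrl. Of 24 deep-layer genes, 21 were below 0 (median -0.16), 9 had an unadjusted p under 0.05, and 1 was free of overlap. Deep-layer scores in PNS were -0.06, -0.23, -0.10 and -0.12, all below the Ctrl scores of 0.08 to 0.19, and replicate 4 lay inside the range of the other PNS libraries. Syt6, a synaptotagmin of layer 6 neurons, had 3776, 2963, 3711 and 3076 in PNS and 4723, 3691, 3838 and 5578 in Ctrl. Crym, which encodes a thyroid hormone binding protein of deep layers, had 3268, 2822 and 2597 in PNS replicates 1 to 3, with 6317 in replicate 4, against 4286 to 6709 in Ctrl. Upper-layer genes were below 0 in 15 of 20 (median -0.10), among them Pou3f2, a POU factor, at 3495 ± 569 in PNS and 4569 ± 893 in Ctrl. Slc17a7, an excitatory neuron marker on neither layer list, ran the other way in PNS replicates 1 to 3. It had 9286, 10647 and 9738 there, with 4597 in replicate 4, against 4537 to 7310 in Ctrl. Immature neuron genes were below 0 in 26 of 27 (median -0.11), with 1 member in each direction at an unadjusted p under 0.05. Their median was -0.06 without PNS replicates 2 and 3 and -0.01 with the bulb score in the model. Their score in PNS replicate 4, at 0.01, lay inside the Ctrl range of -0.05 to 0.18. The genes listed for subplate and Cajal-Retzius cells ran the other way, above 0 in 19 of 21. Their median of 0.38 was 0.19 without PNS replicates 2 and 3 and 0.17 with the bulb score in the model. Their scores were 0.05, 0.40, 0.48 and -0.19 in PNS replicates 1 to 4 against -0.28 to -0.06 in Ctrl. Cplx3 and Nr4a2, which also mark subplate neurons, were counted with the deep-layer genes instead. They were lower in PNS, at -1.60 and -0.55, both with overlap. Trp73, a p53 family factor of Cajal-Retzius cells, had 832, 1002, 1110 and 970 in PNS and 708, 717, 721 and 835 in Ctrl. Ndnf, a secreted factor of the marginal zone, averaged 2622 ± 187 in PNS and 2088 ± 226 in Ctrl without overlap. Cell cycle genes split 14 to 21 (median -0.01) and radial glia and progenitor genes 11 to 14 (median -0.06).

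**Figure D3:**
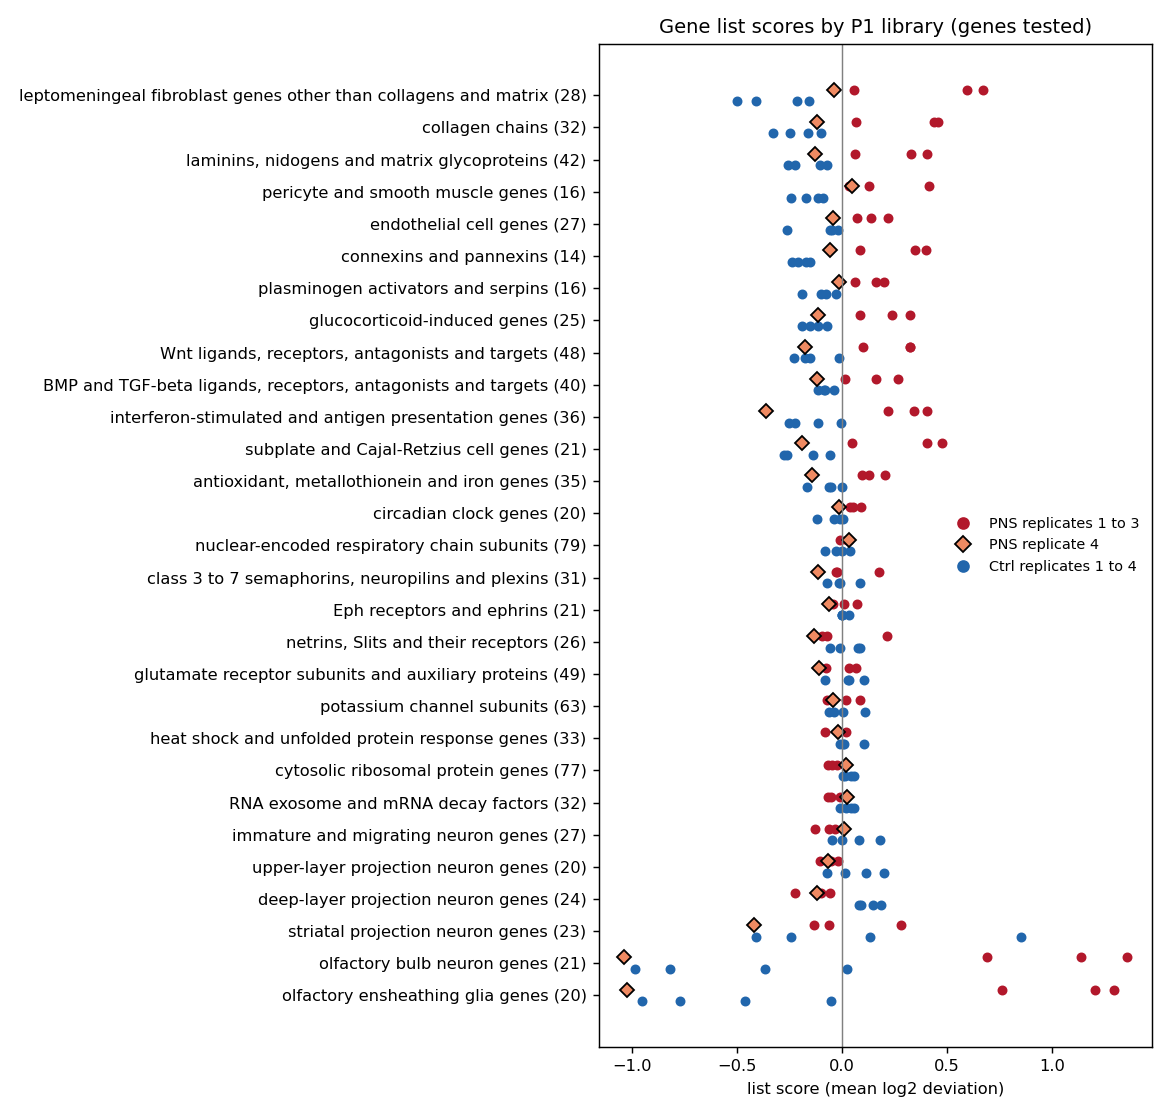
Scores of 29 gene lists in each P1 library, with the number of genes tested in brackets, the PNS points above the Ctrl points in each row, and the score as the mean log2 deviation of the members from their mean over the 8 libraries. Leptomeningeal scores were -0.04 to 0.67 in PNS and -0.50 to -0.16 in Ctrl, while olfactory bulb scores were 0.69 to 1.36 in PNS replicates 1 to 3, -1.04 in replicate 4 and -0.99 to 0.02 in Ctrl.

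Synapse and channel genes gave small differences, and their lists did not share a direction. Of 49 glutamate receptor genes, 34 were below 0 (median -0.05), with 30.6% above 0 against 44.5% of all genes. Free of overlap were 2 members, both lower, beside 1.54% of all genes. Grik3, a kainate receptor subunit, had 9755, 8664, 9638 and 9624 in PNS and 10857, 10106, 11096 and 11739 in Ctrl (difference -0.22 ± 0.06). Gsg1l, an auxiliary subunit of AMPA receptors, had 2104, 1667, 1417 and 2015 in PNS and 2307, 2165, 2178 and 2744 in Ctrl (difference -0.39 ± 0.13). Grm3, a metabotropic receptor, averaged 2339 ± 478 in PNS and 2859 ± 214 in Ctrl. Synaptic adhesion genes were below 0 in 33 of 50, with 0 members at an unadjusted p under 0.05 in either direction. Presynaptic genes split 20 to 27, or 42.6% above 0, close to the 44.5% of all genes. Potassium channel genes were below 0 in 40 of 63 (median -0.07), with 36.5% above 0 against 44.5% of all genes. Among them DESeq2 called Kcnn1 lower and Kcnj4 higher. Kcnj4, an inward rectifier, had 489, 590, 550 and 445 in PNS and 300, 423, 368 and 314 in Ctrl (DESeq2 adjusted p of 0.0361). Sodium and calcium channel genes, listed with pacemaker and related cation channels, split 23 above to 18 below 0 (median 0.01). Free of overlap was 1 member in each direction, against 1.69% of all genes above Ctrl and 1.54% below. Scn4b, a sodium channel beta subunit, was the higher one, at 19.7, 43.5, 28.3 and 24.6 in PNS and 14.5, 10.2, 18.9 and 18.3 in Ctrl. The lower one, Hcn3, a pacemaker channel, averaged 2748 ± 132 in PNS and 3176 ± 332 in Ctrl without overlap.

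Monoamine and acetylcholine genes split 18 above to 25 below 0 (median -0.03), with 2 members in each direction at an unadjusted p under 0.05. The higher ones were Th and Slc6a3, the enzyme and the transporter of dopamine neurons, both also on the olfactory bulb list. Th had 242, 626 and 468 in PNS replicates 1 to 3, with 9.51 in replicate 4, against 5.64 to 90.7 in Ctrl. Slc6a3 had 28.6, 35.2, 36.3 and 13.5 in PNS and 5.64 to 13.5 in Ctrl, so replicate 4 lay beside the highest Ctrl library. The lower ones were Htr7 and Hrh2. Htr7, a serotonin receptor coupled to cyclic AMP, averaged 658 ± 146 in PNS and 1099 ± 382 in Ctrl, with overlap (unadjusted limma p of 0.016). Hrh2, a histamine receptor, had 166, 130, 175 and 152 in PNS and 190, 217, 194 and 185 in Ctrl, without overlap. Neuropeptides and their receptors split 26 above to 24 below 0 (median 0.01). Beside the 1.69% of all genes above Ctrl without overlap and 1.54% below, 1 member was free of overlap in each direction. These were Edn3, the peptide endothelin 3, higher at 519, 678, 546 and 492 in PNS and 448, 486, 344 and 378 in Ctrl, and Sstr2, a somatostatin receptor, lower at 1536, 957, 1523 and 1220 in PNS and 1597, 1721, 1818 and 1800 in Ctrl. Cadherins and catenins, which hold and sort cells by adhesion, split 16 above to 8 below 0 (median 0.05), with 4 higher and 3 lower at an unadjusted p under 0.05. DESeq2 called Cdh3 (P-cadherin) higher (adjusted p of 0.0426), at 73.4, 194 and 189 in PNS replicates 1 to 3, with 18.2 in replicate 4, against 11.3 to 37.6 in Ctrl. Cdh19, a cadherin of the ensheathing lineage, had 26.0, 43.5 and 46.9 in PNS replicates 1 to 3, with 7.92 in replicate 4, against 6.75 to 13.9 in Ctrl. On the lower side Cdh9 averaged 390 ± 46.7 in PNS and 501 ± 39.6 in Ctrl. Cdh8 had 6088, 5377 and 5441 in PNS replicates 1 to 3, with 7427 in replicate 4, against 6882 to 7908 in Ctrl.

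Immune and glial lists differed in how the libraries lay. Interferon-stimulated and antigen presentation genes were above 0 in 32 of 36 (median 0.36). Of the 36, 4 were higher at an unadjusted p under 0.05, beside 4.58% of all genes. Above Ctrl without overlap stood 2, namely Tap2 and H2-Q4, beside 1.69% of all genes. Tap2, which carries peptides to class I molecules, had 179, 180, 177 and 162 in PNS and 136, 141, 110 and 114 in Ctrl. H2-Q4, a class I gene with close relatives that reads may be shared with, averaged 177 ± 52.2 in PNS and 104 ± 14.3 in Ctrl. Interferon scores were 0.22, 0.40 and 0.34 in PNS replicates 1 to 3, with -0.36 in replicate 4, below the Ctrl range of -0.25 to -0.01. Microglial genes split 18 to 11, with a median of 0.04 that turned to -0.08 without PNS replicates 2 and 3 and -0.17 with the bulb score in the model. Their scores of 0.11, 0.04, 0.34 and -0.39 in PNS replicates 1 to 4 spanned the Ctrl scores of -0.39 to 0.23. Among their members stood Tmem119, a marker of resident microglia, at 360 ± 38.1 in PNS and 284 ± 42.0 in Ctrl without overlap. Complement and cytokine genes were above 0 in 25 of 32 (median 0.14, and 0.03 without PNS replicates 2 and 3). Astrocyte genes split 17 to 11 (median 0.07) and oligodendrocyte precursor and myelin genes 13 to 15 (median -0.01). Enpp2 (autotaxin), of choroid plexus and oligodendrocyte lineage, averaged 3130 ± 723 in PNS and 2059 ± 295 in Ctrl (DESeq2 adjusted p of 0.0485). Its value of 2382 in PNS replicate 4 lay beside 2378 in the highest Ctrl library.

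Housekeeping lists differed little. Cytosolic ribosomal protein genes were below 0 in 67 of 77 with a median of -0.06. Free of overlap were 6 members, all lower, beside 1.54% of all genes. Rpl23a averaged 11120 ± 521 in PNS and 12219 ± 557 in Ctrl, and Rps16 13175 ± 383 in PNS and 14258 ± 371 in Ctrl. Their scores were -0.07 to -0.02 in PNS replicates 1 to 3, with 0.02 in replicate 4, against 0.01 to 0.06 in Ctrl. RNA exosome and decay factors were below 0 in 24 of 32 (median -0.06), with Exosc9 as the member that DESeq2 called. Heat shock and unfolded protein genes were below 0 in 27 of 33 (median -0.09), with Hspd1, the mitochondrial chaperonin, at 7090 ± 255 in PNS and 7729 ± 277 in Ctrl without overlap. Nuclear-encoded respiratory subunits were above 0 in 55 of 79, with a median of 0.02, and 4 were free of overlap, among them Ndufa11 of complex I, at 2928, 2993, 2958 and 2872 in PNS and 2421, 2777, 2640 and 2487 in Ctrl. Pfkp, a phosphofructokinase of glycolysis, had 2228, 3051, 2120 and 2936 in PNS and 1924, 1889, 1899 and 1741 in Ctrl, with replicate 4 the second highest (DESeq2 adjusted p of 0.0426). Of 35 antioxidant and metal genes, 28 were above 0 (median 0.08). DNA methylation and histone mark enzymes split 18 to 27 (median -0.01), with 0 of 45 at an unadjusted p under 0.05.

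Leaving out PNS replicate 4 changed the result. limma then called 117 genes higher (0.7%) and 3 lower (0.018%), and the lower genes were Sema3c, Crym and Cdh8. In 100 of the 117 the left-out library lay at or below the highest Ctrl library. It lay below the Ctrl median in 70 and below all Ctrl libraries in 33. It lay above all Ctrl libraries in 17, against 2861 of all 16711 genes. The median difference of these 117 genes was 1.37 for PNS replicates 1 to 3, which the selection fixes, and -0.08 for replicate 4 alone. Across all genes, PNS replicates 1 to 3 lay above all Ctrl libraries in 1242. Replicate 4 did so too in 283 of these, or 22.8%, against 2861 of all 16711 genes. PNS replicates 1 to 3 lay below all Ctrl libraries in 953, and replicate 4 did so too in 257, or 27.0%. How many of all genes had replicate 4 below all Ctrl libraries was not counted. The 27.0% thus has no background and cannot be set against the 22.8%.

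The 10 genes with the smallest p in that fit included Omp, Nmb, Shisa8, Erbb3, Hey2, Ppm1j, Matn4, Apold1 and Itga7. Omp, the olfactory marker protein of olfactory sensory axons, had 78.7, 147 and 139 in PNS replicates 1 to 3, with 5.55 in replicate 4, against 6.50 to 15.5 in Ctrl. Erbb3, the neuregulin receptor of the Schwann and ensheathing lineage, had 242, 495 and 342 in PNS replicates 1 to 3, with 51.5 in replicate 4, against 37.7 to 71.4 in Ctrl. Apold1, an endothelial early response gene, had 643, 1265 and 835 in PNS replicates 1 to 3, with 204 in replicate 4, against 178 to 298 in Ctrl. Hey2, a Notch target, had 552, 857 and 667 in PNS replicates 1 to 3, with 228 in replicate 4, below all Ctrl values of 259 to 281. Itga7, a laminin receptor, had 408, 856 and 671 in PNS replicates 1 to 3, with 166 in replicate 4, against 121 to 191 in Ctrl. In all 10, replicate 4 lay at or below the highest Ctrl library.

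**Figure D4:**
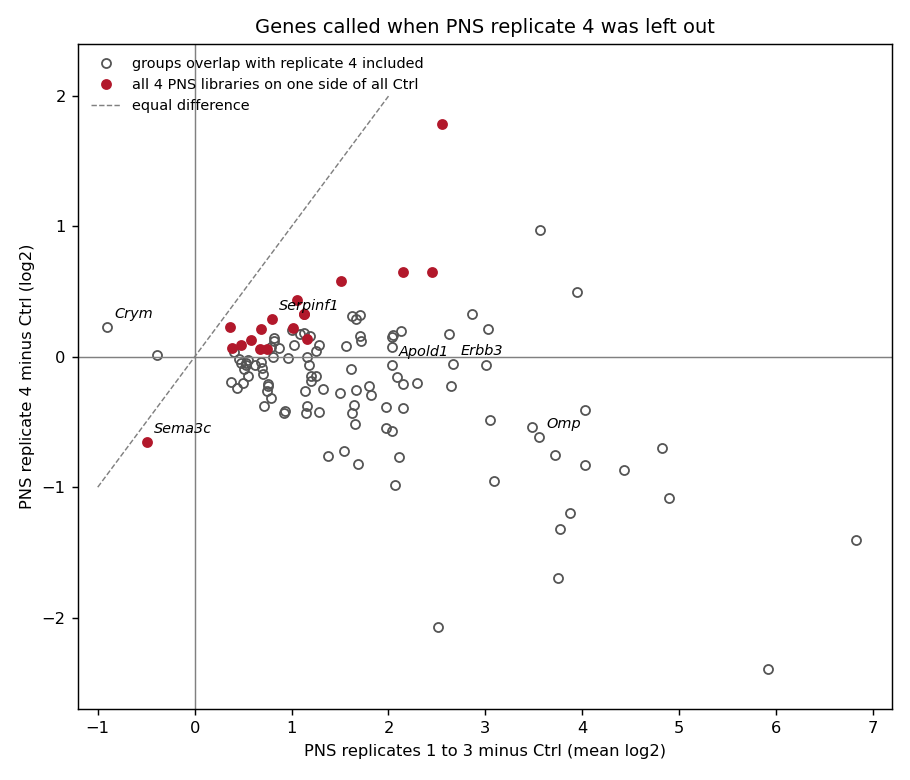
The 120 genes called by limma without PNS replicate 4, with the mean log2 difference of PNS replicates 1 to 3 from Ctrl on the x axis and that of replicate 4 from Ctrl on the y axis. Filled points are genes in which all 4 PNS libraries lie on one side of all Ctrl libraries, which held for 17 of the 117 higher genes, and most open points lie near or below the horizontal line at 0.

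Of the 117 genes, 55 were on any of the 62 lists, 17 of them on the olfactory bulb or ensheathing glia list and 13 on a collagen, matrix or leptomeningeal list. Olfactory bulb genes had a median of 0.55 with all libraries, 1.08 without PNS replicate 4 and 0.11 without PNS replicates 2 and 3. Ensheathing glia genes had 0.65, 0.91 and 0.31 under the same choices, and their scores were 0.76, 1.30 and 1.21 in PNS replicates 1 to 3, with -1.03 in replicate 4, against -0.95 to -0.05 in Ctrl. In the model with the olfactory bulb score added the medians of interferon genes and the BMP list were 0.02 and 0.04, against 0.36 and 0.14 without it. In the same model Sema3c stood at -0.61, Hs6st2 at -0.55, Ephb1 at -0.34 and Epha4 at -0.31, and the deep-layer median at -0.18. The part of neighbouring tissue in the differences of the higher lists was not tested beyond these values.

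**Figure D5:**
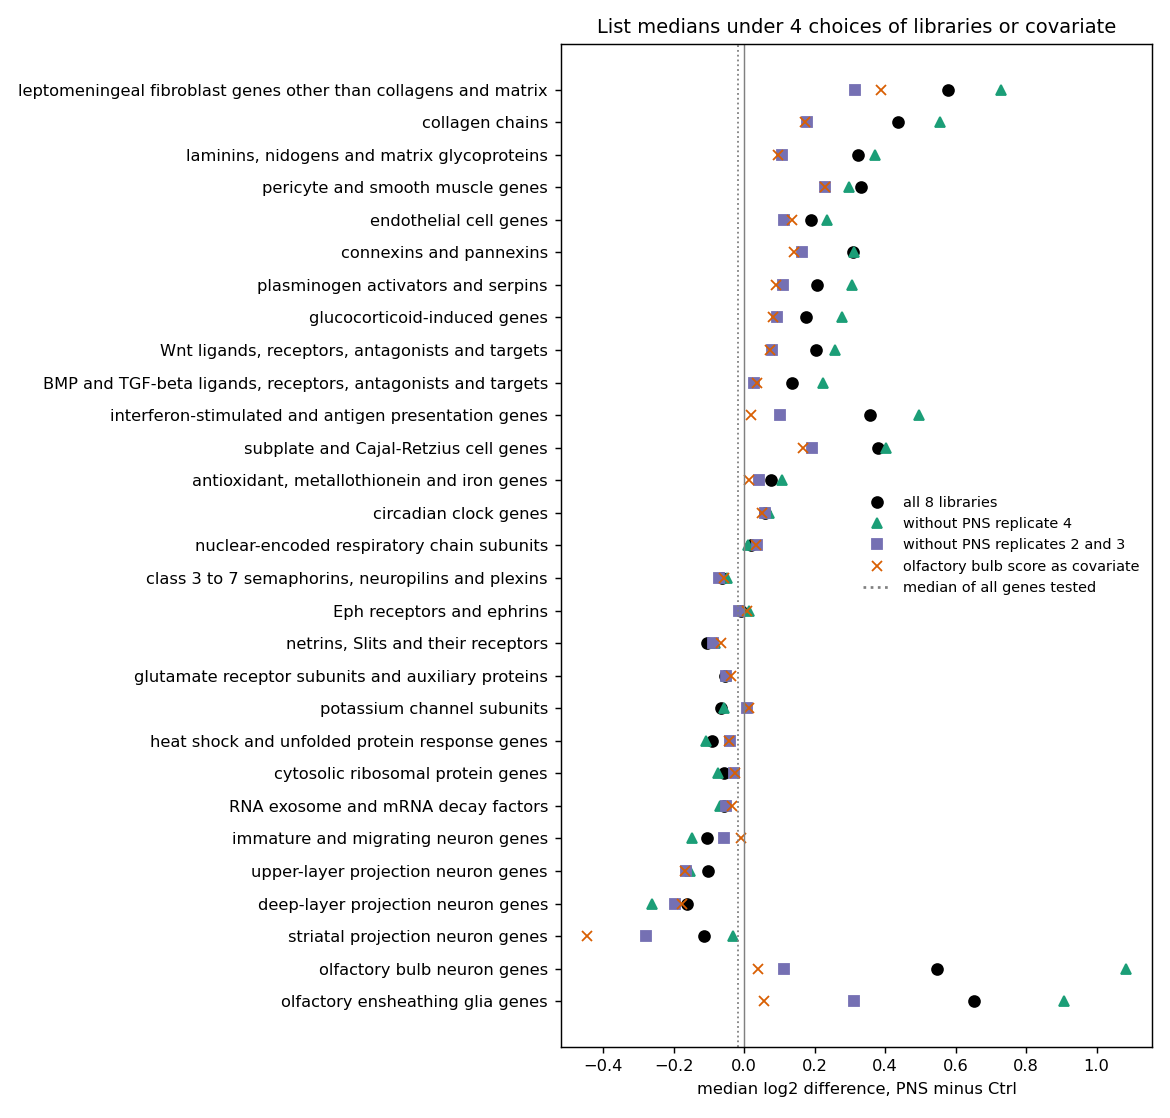
Median log2 difference, PNS minus Ctrl, of the same 29 lists with all 8 libraries, without PNS replicate 4, without PNS replicates 2 and 3, and in a model that adds the olfactory bulb score, beside the median of all genes at -0.02. The collagen median was 0.44, 0.56, 0.18 and 0.17 under these 4 choices, and the deep-layer median -0.16, -0.26, -0.20 and -0.18.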

How the data were processed

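The submitters' processing notes name cutadapt, STAR 2.7.3a, HTSeq and DESeq2 with GRCm38. The annotation release, strand and gene filter were not given in the sources used here. Genes that overlap or have near-identical copies are thus uncertain. The deposited P1 table holds signal values, which are counts that the authors normalized with DESeq2. Between 99.995% and 100.0% of values per library were whole multiples of the value of 1 read within 0.0051, so reads were recovered by division.

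The main test, kept as planned for normalized values, was limma-trend (limma 3.58.1 in R 4.3.3) on log2 of the deposited value + 1. Benjamini-Hochberg adjustment covered all 16711 genes with a mean of at least 10. edgeR 4.0.16 and DESeq2 1.42.0 were alternatives on the recovered reads, and DESeq2 gave no adjusted p for 14 genes. The tests were checked on simulated data. Symbols follow the GENCODE annotation of GRCm38, which matched 19720 of 19748 IDs and renamed 305.

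The 62 lists (1835 genes, 1744 tested), the members and the naming rule were chosen with earlier results of these data known. The rule took, per direction, 12 genes by limma p and 5 by size among those without overlap and with a mean of at least 50, predicted genes left out. It added up to 4 members of each list by p with those needed to describe its function, list members that DESeq2 called, and the 10 smallest p without PNS replicate 4. Lists are described by counts and medians. Alternatives were other pseudocounts, filters, scalings and tools, a replicate block, each library left out, and the bulb score or depth as a covariate. Libraries of a group all differed from each other beyond sampling noise. Precision is set by 34.0 to 58.8 M reads and 4 libraries a group. P14 libraries were not used here. A few genes that the rule picks are left out of the text.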

Additional observations from a re-analysis of the deposited data

Results flagged for a closer look

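In 14 of 348 groups of 4 looked at (112 genes and 62 list scores, PNS and Ctrl), 1 library stood far from the other 3, and chance alone flags about 1 group in 20. The values far from the rest were low in PNS for Exosc9, with 938 in PNS replicate 3 against 1143 to 1173, and for Grik3, with 8664 in PNS replicate 2 against 9624 to 9755. The score of oligodendrocyte precursor and myelin genes was -0.32 in PNS replicate 4 against 0.21 to 0.30 in the other PNS libraries. In Ctrl replicate 1 the high values were 256 for Veph1, against 60.6 to 87.3 in the other Ctrl libraries, 90.7 for Th, against 5.64 to 18.9, and 30.9 for Ppm1j, against 16.7 to 18.3. In Ctrl replicate 2 Psmc3ip stood at 958 against 298 to 362. In Ctrl replicate 3 the low values were 699.5 for Id1, against 826 to 850, 2687 for Vtn, against 3485 to 3540, 1601 for Slc6a13, against 1972 to 2045, and -0.26 for the endothelial score, against -0.06 to -0.02. In Ctrl replicate 4 the high values were 3670 for Hcn3, against 2954 to 3057, 835 for Trp73, against 708 to 721, and 0.032 for the score of Eph receptors and ephrins, against 0.00 in the other 3 libraries.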

How the results depend on the processing

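The count of genes called was 0 by limma, and also under both other pseudocounts, both other filters, TMM scaling, edgeR, depth as a covariate and, chosen after seeing the data, without both PNS replicates 2 and 3. It was 71 by DESeq2 and 1 with the bulb score in the model (Spp1, difference -1.87, adjusted p = 0.0265, named after its values were seen). Leaving out 1 library gave 0 to 120 calls. The 120 came without PNS replicate 4, and 1 without Ctrl replicate 1 (the predicted gene Gm7887, difference -2.699, adjusted p = 0.0349). Genes at an unadjusted p under 0.05 numbered 1115, 600 with the bulb score, 372 without both PNS replicates 2 and 3, and 520 to 2090 with 1 library left out. The lowest count was without PNS replicate 2. Genes without overlap numbered 540, and 662 to 2195 with 1 library left out or 1647 without both PNS replicates 2 and 3, where fewer libraries make overlap rarer. With replicate number as a block the calls were 0 and the unadjusted count 1128. Same-numbered libraries deviated with correlations of -0.15 to 0.21. The same-numbered Ctrl library correlated best with PNS replicates 3 and 4, but not with 1 and 2. These values cannot settle whether the numbers pair the samples. Of 2125 values of 112 of the genes named, 2041 kept direction and side of the threshold. Of the rest, 78 passed it (48 by DESeq2, 30 without PNS replicate 4) and 6 reversed. Fkbp5 ranged from -0.086 to 0.004 with 1 library left out, with 0.004 without PNS replicate 1 and without Ctrl replicate 4, and stood at 0.001 with depth as a covariate. Sgk1 ranged from -0.025 without PNS replicate 4 to 0.075, and stood at -0.037 with depth as a covariate. Nr3c1 stood at -0.092 with the bulb score. Of 25 list medians of at least 0.1 in size, 3 changed sign in 5 settings: striatal genes stood at 0.05 without Ctrl replicate 1, septal and thalamic genes at -0.21 with the bulb score and -0.18 without PNS replicates 2 and 3, and choroid and ependymal genes at -0.14 and -0.24. The cause was not tested.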
